A study of Ovis aries with 12 samples.

Results

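The genes described here are 45 markers of leukocytes, the cells of the immune system. They were chosen by name, with earlier results of these data known. They cover pan-leukocyte genes, T cells, B cells, NK and cytotoxic cells, macrophages and other myeloid cells, and mast cells. Each was measured as the sum of its mRNA transcripts in the oviduct isthmus of 12 ewes. Of the 45, 36 had at least 1 transcript that could be paired with the gene, among 10771 genes paired in all. *PTPRC*, *CD8A*, *CSF1R*, *SPI1*, *CD3G*, *ZAP70*, *GZMB*, *KLRD1* and *CD163* had none and are not analysed here. A further 5 (*CD5*, *LCK*, *CD79B*, *MS4A1* and *NCR1*) had a mean below 0.1 FPKM (a fragment count scaled to transcript length and library size) and entered no test, so 31 genes were tested among 8676.

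The wall of the oviduct holds resident leukocytes. T cells lie mainly within and below the epithelium, while macrophages sit in the stroma and between muscle bundles, where they take up dead cells and debris. Progesterone and estrogen are known to influence leukocytes of the female reproductive tract, and the tract must admit sperm and embryo without attacking them. The genes listed encode surface receptors and their signalling chains, enzymes and killing proteins of granules, and parts of the machinery of engulfment.

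The study asked how the estrous cycle and the fecundity gene *FecB* (a variant of *BMPR1B* that raises ovulation rate) relate to transcripts of the isthmus, the narrow muscular segment of the oviduct. All ewes were Small-Tailed Han sheep of 2.5 ± 0.5 years. Every ewe carried a progesterone device of 300 mg for 12 days. MF and wF were sampled 45 to 48 h after its removal, in the follicular phase, and ML and wL on day 9, in the luteal phase. MF and ML were *FecB* BB (the mutant genotype) and wF and wL were *FecB* ++ (wild type), with 3 ewes in each of the 4 groups and 1 library per ewe. Whole tissue was used, so a level of a leukocyte gene reflects both the number of cells and the RNA in each, and fewer cells of a type and less RNA per cell cannot be told apart.

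The libraries differed in the levels of genes that mark tissues. Of 12 smooth muscle genes, 8 had a value, and their summed level ran from 497 to 2188 FPKM in 8 libraries and from 3642 to 7308 in the other 4, which were wF2, wL2, ML2 and ML3, while 10 genes of ciliated epithelium summed to 43.3 to 258 FPKM in those 4 and 418 to 963 in the rest. MF held none of the 4 and ML held 2 of them. Below, these 4 are called the libraries with the most smooth muscle. The name refers to the summed RNA level of the 8 genes, and whether the amount of tissue differed was not tested. The FPKM of a library summed to 349733 to 456531 over all transcripts.

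**Figure D1:**
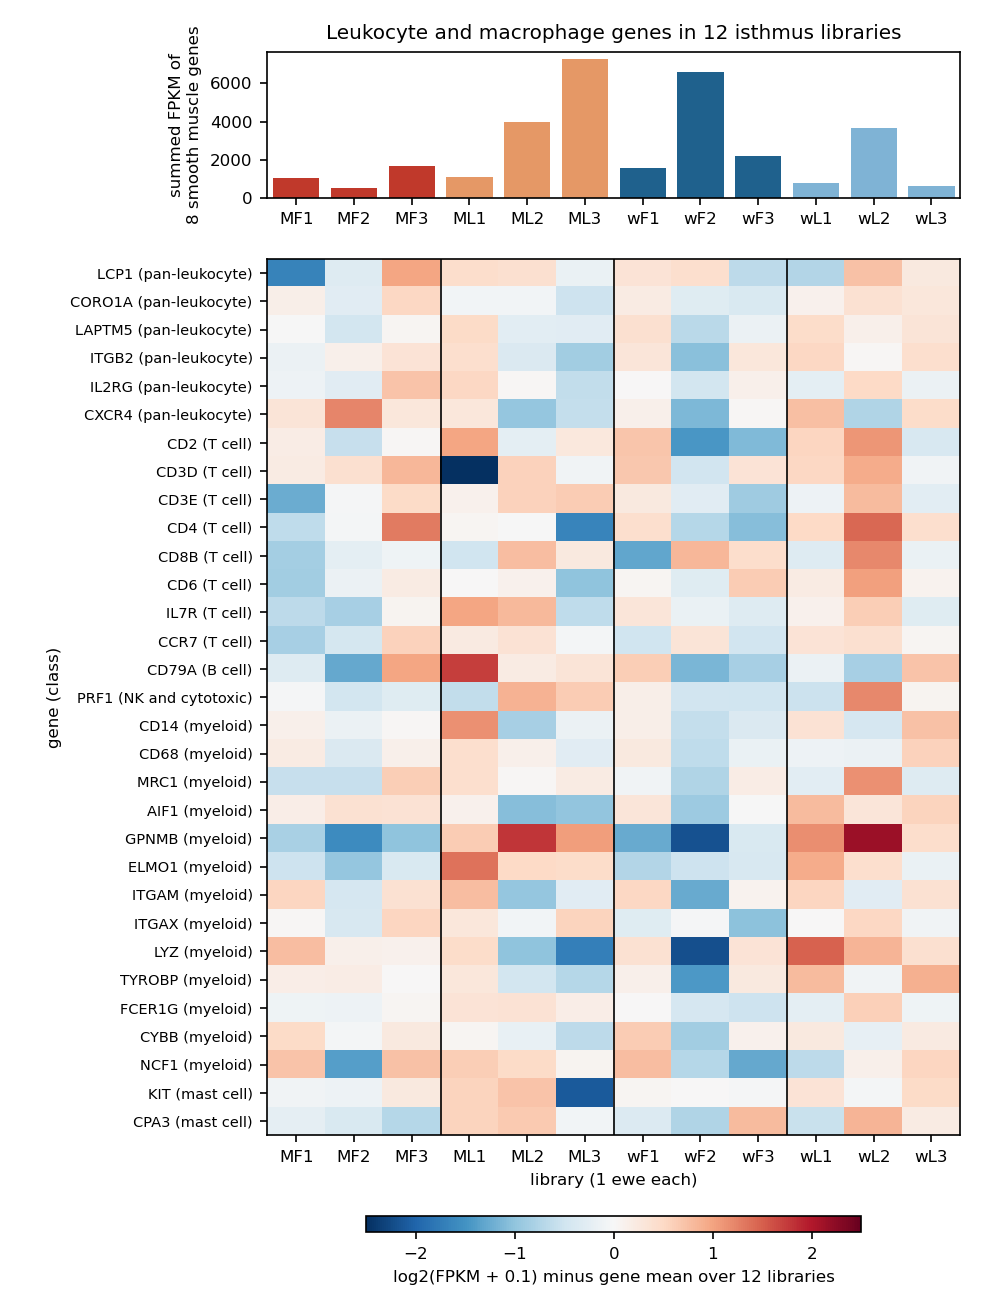
Summed FPKM of 8 smooth muscle genes (bars, linear axis) above the level of the 31 tested leukocyte genes in the 12 libraries, as log2(FPKM + 0.1) minus the mean of the gene over the 12 libraries (red above, blue below; the colours end at -2.5 and 2.5). *GPNMB* and *ELMO1* are below their means in the 6 follicular libraries, wF2 is the lowest library for 12 genes and wL2 the highest for 11.

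Among pan-leukocyte genes, *LAPTM5*, a lysosomal membrane protein that tempers antigen receptor signalling, and *CXCR4*, the receptor of the chemokine CXCL12, had the highest mean levels of all 36 genes, at 22.6 and 21.5 FPKM. *LAPTM5* read 21.8, 16.0 and 22.7 FPKM in MF, 30.5, 18.2 and 18.1 in ML, 28.9, 13.7 and 19.8 in wF and 30.2, 24.0 and 27.3 in wL. Its highest library stood 2.23 times above its lowest, and the follicular and luteal libraries overlapped. *CXCR4* read 24.0, 44.9 and 23.5 FPKM in MF, 23.5, 9.86 and 12.7 in ML, 21.1, 8.80 and 19.6 in wF and 32.6, 11.5 and 26.4 in wL. Its 4 lowest libraries were ML2, ML3, wF2 and wL2, the 4 with the most smooth muscle, and the part of tissue composition in this was not tested. The remaining genes of the class had lower levels. *CORO1A*, an actin-binding coronin, ranged over 4.13 to 8.62 FPKM, *LCP1*, the actin-bundling plastin, over 1.44 to 9.58, *ITGB2*, the shared chain of the leukocyte integrins, over 2.11 to 6.44, and *IL2RG*, the common gamma chain of cytokine receptors, over 1.77 to 4.57.

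T cell genes were present at low levels in all groups. *CD8B*, the beta chain of the coreceptor for MHC class I, and *CD3E*, a chain of the T cell receptor complex, were the most abundant of the class. *CD8B* read 1.35, 2.09 and 2.32 FPKM in MF, 1.74, 4.35 and 2.97 in ML, 0.967, 4.56 and 3.45 in wF and 2.0, 5.88 and 2.22 in wL. *CD3E* read 0.729, 1.83 and 2.61 FPKM in MF, 2.01, 2.84 and 2.93 in ML, 2.23, 1.51 and 0.951 in wF and 1.69, 3.28 and 1.54 in wL. The highest value of both was in wL2, which was the highest library for 6 of the 8 tested T cell genes. *CD3D*, another chain of the complex, read 1.54, 1.79 and 2.42 FPKM in MF, 0, 2.03 and 1.24 in ML, 2.17, 0.917 and 1.69 in wF and 1.93, 2.62 and 1.23 in wL. It is listed at 0 in ML1 alone, a library in which *CD3E* read 2.01 FPKM, so the 0 may be a failed estimate. *IL7R*, the receptor for the survival cytokine IL7, read 1.13, 0.986 and 1.93 FPKM in MF, 3.76, 3.32 and 1.16 in ML, 2.29, 1.63 and 1.45 in wF and 2.0, 2.88 and 1.48 in wL. ML1 and ML2 were its highest libraries, and ML3 lay within the range of MF. *CD6*, a scavenger-like receptor of T cells, read 0.165, 0.338 and 0.458 FPKM in MF, 0.387, 0.425 and 0.141 in ML, 0.399, 0.295 and 0.653 in wF and 0.456, 0.889 and 0.414 in wL. *CD4*, the coreceptor for MHC class II that T helper cells and some macrophages carry, read 0.102, 0.202 and 0.667 FPKM in MF, 0.224, 0.210 and 0 in ML, 0.316, 0.0907 and 0.0499 in wF and 0.339, 0.741 and 0.321 in wL. *CD4* was thus below 1 FPKM in all 12 libraries and lower than *CD8B* in each of them. *CD2*, an adhesion receptor, ranged over 0.423 to 3.0 FPKM and *CCR7*, a chemokine receptor of naive T cells and dendritic cells, over 0.0158 to 0.207. Of the genes too low to test, *CD5* was listed at 0 in 7 libraries and *LCK*, the kinase behind the coreceptors, in all 12, although *CD3E* was above 0 in each.

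Genes of the remaining lymphocyte and mast cell classes were scarce. *CD79A*, a signalling chain of the B cell receptor, read 0.0945, 0 and 0.383 FPKM in MF, 0.702, 0.179 and 0.202 in ML, 0.271, 0.00992 and 0.0367 in wF and 0.12, 0.0361 and 0.297 in wL. Its partner *CD79B* read 0.0423, 0 and 0.130 FPKM in MF, 0, 0.0972 and 0 in ML, 0.0587, 0.0889 and 0.275 in wF and 0.0573, 0.156 and 0.0463 in wL, and *MS4A1*, which encodes the B cell antigen CD20, did not exceed 0.101 FPKM. *PRF1*, the pore-forming protein of cytotoxic granules, read 0.717, 0.504 and 0.570 FPKM in MF, 0.440, 1.42 and 1.19 in ML, 0.818, 0.495 and 0.491 in wF and 0.470, 1.80 and 0.775 in wL. It was highest in wL2, ML2 and ML3, which are luteal and are 3 of the 4 libraries with the most smooth muscle. In the follicular wF2, the remaining one, it read 0.495 FPKM, within the range of the libraries outside the 4. *NCR1*, the NK cell receptor NKp46, read 0.10, 0 and 0.0565 FPKM in MF, 0.0925, 0.244 and 0.204 in ML, 0.0453, 0.157 and 0.102 in wF and 0.0160, 0.127 and 0.0401 in wL, and its 2 highest values were in ML2 and ML3. Of the mast cell genes, *KIT*, the receptor of stem cell factor, read 0.30, 0.292 and 0.406 FPKM in MF, 0.531, 0.603 and 0 in ML, 0.342, 0.328 and 0.320 in wF and 0.438, 0.311 and 0.494 in wL. *CPA3*, a protease of mast cell granules, read 0.0635, 0.0463 and 0.0167 FPKM in MF, 0.180, 0.200 and 0.0829 in ML, 0.0509, 0.0138 and 0.231 in wF and 0.0295, 0.243 and 0.121 in wL. The groups overlapped for *KIT*, which was highest in ML2 and is listed at 0 in ML3.

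Summed within a library, the 13 myeloid genes reached 34.3 to 110.2 FPKM, against 37.8 to 80.8 for 6 pan-leukocyte and 6.92 to 19.5 for 10 T cell genes. *TYROBP*, the adaptor DAP12 of activating receptors, had the highest mean of the class, and *CYBB*, the catalytic subunit of the phagocyte NADPH oxidase, the next. *TYROBP* read 11.9, 12.1 and 10.8 FPKM in MF, 12.9, 7.74 and 6.41 in ML, 11.6, 3.85 and 12.6 in wF and 18.5, 10.1 and 19.7 in wL. *CYBB* read 13.0, 8.89 and 11.0 FPKM in MF, 9.56, 8.08 and 5.84 in ML, 14.4, 5.00 and 10.0 in wF and 11.0, 7.96 and 10.8 in wL. In both, the 4 libraries with the most smooth muscle lay below all others. *FCER1G*, the gamma chain of Fc receptors and an adaptor like *TYROBP*, did not share this order and read 2.82, 2.78 and 3.15 FPKM in MF, 3.89, 3.91 and 3.45 in ML, 3.07, 2.24 and 2.09 in wF and 2.54, 4.66 and 2.81 in wL. *ITGAX*, the integrin chain CD11c of dendritic cells and some macrophages, read 0.552, 0.389 and 0.833 FPKM in MF, 0.683, 0.509 and 0.850 in ML, 0.418, 0.526 and 0.216 in wF and 0.549, 0.822 and 0.501 in wL. The lipopolysaccharide coreceptor *CD14* ranged over 4.93 to 19.7 FPKM and was highest in ML1. Ranges were 3.76 to 14.2 FPKM for the mannose receptor *MRC1*, 1.30 to 5.62 for the integrin chain *ITGAM* (CD11b), 1.45 to 3.49 for the lysosomal glycoprotein *CD68* and 0.238 to 1.41 for the oxidase subunit *NCF1*.

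The question of the estrous phase gave the only calls. Against all 6 luteal libraries, *GPNMB* and *ELMO1* fell in the 6 follicular libraries. Both had an adjusted p under 0.05 (limma) and an absolute log2 difference of at least 1. That makes 2 of the 31 tested genes (6.45%) against 0.853% of all genes tested. Since the genes were listed with earlier results of these data known, this share is no result about leukocyte genes as a set. *GPNMB* encodes a transmembrane glycoprotein of macrophages rich in lysosomes and of other cells with large lysosomes such as osteoclasts and melanocytes. *ELMO1* encodes an adaptor that, with DOCK proteins, activates Rac during engulfment of apoptotic cells and during migration, and it is not confined to macrophages. *GPNMB* read 2.13, 1.22 and 1.86 FPKM in MF, 6.03, 13.6 and 8.06 in ML, 1.54, 0.776 and 2.93 in wF and 8.78, 17.3 and 5.24 in wL. Every follicular value lay below every luteal value, in both genotypes. The means were 1.74 ± 0.750 FPKM (SD, n = 6) in the follicular phase and 9.83 ± 4.68 (SD, n = 6) in the luteal phase. On the log2(FPKM + 0.1) scale, which understates changes of low genes, the difference was -2.41 with a standard error of 0.38 and an adjusted p of 0.0276.

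*ELMO1* read 3.16, 2.31 and 3.51 FPKM in MF, 11.9, 6.55 and 6.32 in ML, 2.71, 3.15 and 3.47 in wF and 8.75, 6.19 and 4.04 in wL. Again no follicular value reached a luteal one, but the gap was narrow, from 3.51 FPKM in MF3 to 4.04 in wL3. The means were 3.05 ± 0.464 FPKM (SD, n = 6) and 7.30 ± 2.72 (SD, n = 6), with a log2 difference of -1.17, a standard error of 0.24 and an adjusted p of 0.0469. Of its 2 paired transcripts, the larger ranged over 2.10 to 3.21 FPKM in the follicular and 3.59 to 10.5 in the luteal libraries. The smaller ranged over 0.209 to 0.487 and 0.451 to 1.46, which overlapped. Groups of 6 libraries did not overlap with lower follicular values for 1.82% of all genes tested and with higher ones for 0.864%.

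Both calls were close to the threshold. *GPNMB* lost its call without MF1 (adjusted p = 0.0706), MF2 (0.0919), ML2 (0.0529), wF1 (0.0594), wL1 (0.0667) or wL2 (0.0607), while its log2 difference stayed within -2.63 to -2.18 over all 12 libraries left out in turn. *ELMO1* kept its call only without ML3 (adjusted p = 0.0458) or wL3 (0.0397), with a log2 difference of -1.31 to -1.02. Without ML2, ML3, wF2 and wL2 the differences were -1.70 for *GPNMB* (adjusted p = 0.0833) and -1.46 for *ELMO1* (adjusted p = 0.0949).

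**Figure D2:**
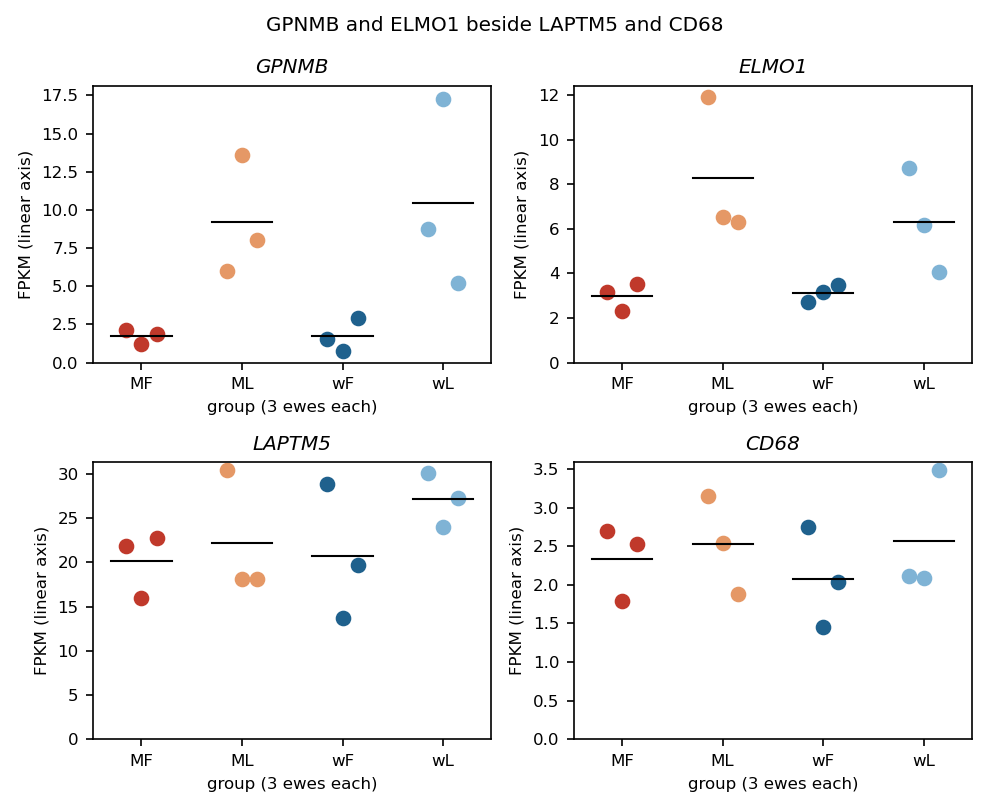
FPKM of *GPNMB*, *ELMO1*, *LAPTM5* and *CD68* by group (linear axis; each point is 1 ewe and the line is the mean of 3). *GPNMB* and *ELMO1* are lower in MF and wF than in every luteal library, whereas *LAPTM5* and *CD68* overlap between the phases.

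Other macrophage and leukocyte markers served to put these levels in proportion within each library. The level of *GPNMB* per level of *CD68*, both in FPKM, was 0.533 to 1.44 in the follicular and 1.50 to 8.27 in the luteal libraries, and per *LAPTM5* it was 0.0532 to 0.148 and 0.192 to 0.747, without overlap in either. These ratios carry the difference of *GPNMB* itself and are no separate support for it. *ELMO1* per *LAPTM5* was 0.0939 to 0.230 and 0.148 to 0.391, and per *CD68* it was 0.987 to 2.16 and 1.16 to 4.13. Both overlapped between the phases. *CD68* itself had a log2 difference between the phases of -0.20 (95% interval -0.72 to 0.33), *LAPTM5* of -0.28 (-0.74 to 0.18) and *MRC1* of -0.40 (-1.11 to 0.31), intervals that include 0.

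For the other 29 tested genes the phase difference did not pass the test, and none had an unadjusted p under 0.05, so that the 2 genes called were also the only ones past that level (6.45% against 20% of all genes tested, of which 10.8% with lower and 9.26% with higher follicular values). The log2 difference was below 0 for 26 of the 31 genes, including *GPNMB* and *ELMO1*, and for 53.4% of all genes tested, with a median of -0.28 over the 31 and -0.04 over all genes. Since these genes mark overlapping cells, they are not independent of one another. By class, 11 of 13 myeloid, 7 of 8 T cell and 5 of 6 pan-leukocyte genes were below 0, with medians of -0.27, -0.43 and -0.05. *FCER1G* had the smallest unadjusted p of the rest, with a log2 difference of -0.37 (95% interval -0.80 to 0.05, adjusted p = 0.312). At the other end stood *CD3D*, with 0.66 (-0.81 to 2.13), *CXCR4*, with 0.28 (-0.50 to 1.05), and *CYBB*, with 0.18 (-0.38 to 0.74). The value of *CD3D* rests on ML1, without which it was -0.02. Without ML2, ML3, wF2 and wL2, *CD3D* was the only one of the 31 genes called, with 2.30 (adjusted p = 0.0297), and its luteal side then included the library listed at 0.

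**Figure D3:**
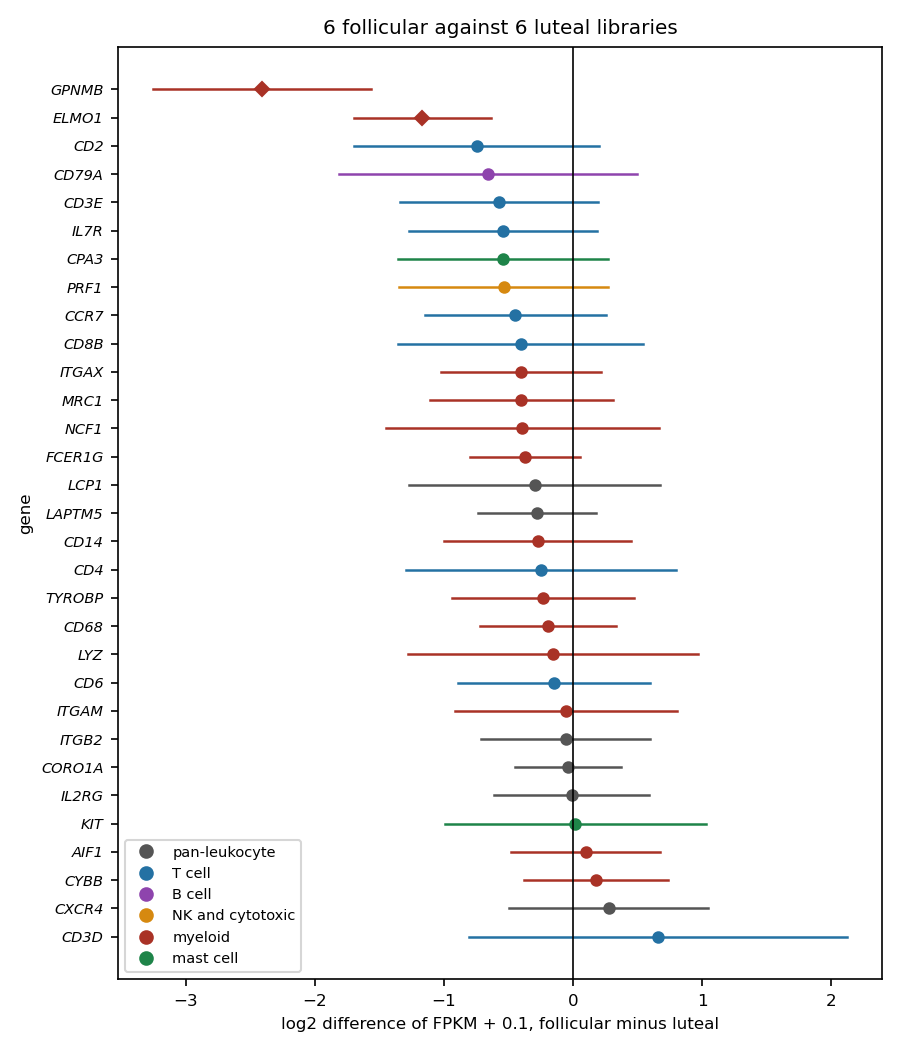
Difference of log2(FPKM + 0.1), follicular minus luteal, for the 31 tested genes with 95% intervals from limma (lines; 6 libraries per phase), coloured by class. Diamonds mark *GPNMB* (-2.41) and *ELMO1* (-1.17), the 2 genes called, and the intervals of the other 29 include 0.

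Within *FecB* BB ewes (MF vs ML), 0 of the 31 genes were called by limma, against 1.73% of all genes tested, and 3 had an unadjusted p under 0.05 (9.68% against 25.5% of all genes). *GPNMB* had a log2 difference of -2.29 (SE 0.54, adjusted p = 0.0540) and *ELMO1* of -1.39 (SE 0.34, adjusted p = 0.0557), and neither overlapped between the groups. The opposite direction was held by *AIF1*, the calcium-binding protein IBA1 of macrophages, with 0.96 (SE 0.37, adjusted p = 0.147). *AIF1* read 9.31, 10.9 and 10.7 FPKM in MF, 8.95, 3.91 and 4.13 in ML, 10.2, 4.36 and 8.18 in wF and 14.4, 10.3 and 12.2 in wL. All 3 values of MF lay above those of ML, and the 2 lowest ML libraries were ML2 and ML3, which have the most smooth muscle of their group. Groups did not overlap for *GPNMB*, *ELMO1*, *FCER1G* and *CPA3* with lower values in MF (12.9% against 14.4% of all genes) and for *AIF1* with higher values (3.23% against 16.5%). *IL7R* (-0.87, adjusted p = 0.258), *CXCR4* (1.03, adjusted p = 0.217) and *CD3D* (1.59, adjusted p = 0.296) overlapped. The log2 difference was below 0 for 18 of 31 genes (46.8% of all genes), with a median of -0.11. Without MF2 this median was 0.02, without ML1 0.07, and without ML2, ML3, wF2 and wL2 it was -0.41, so its sign was not stable. In that last case *CD3D* alone was called (4.31, adjusted p = 0.0185), against ML1 as the only ML library. Rescaling the libraries to equal mRNA sums gave calls for *GPNMB* and *ELMO1* (adjusted p = 0.0264 and 0.0247).

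Within *FecB* ++ ewes (wF vs wL), 0 of the 31 genes and 0% of all genes tested were called by limma, while 2 of the 31 (6.45%) and 8.79% of all genes had an unadjusted p under 0.05. Both had lower values in wF, as had 5.97% of all genes. They were *GPNMB*, with a log2 difference of -2.52 (SE 0.54, adjusted p = 0.439), and *ELMO1*, with -0.94 (SE 0.34, adjusted p = 0.502). Every one of the 31 genes had a log2 difference below 0, against 61.1% of all genes, with a median of -0.44 over the 31 and -0.12 over all genes. The library wF2 was lowest of the 12 for 12 of the 31 genes, 7 of them myeloid. Without it, 26 of the 31 were below 0 and the median was -0.26, and without ML2, ML3, wF2 and wL2 they were 22 and -0.20. *CD4*, *AIF1*, *GPNMB*, *ELMO1* and *LYZ* did not overlap between wF and wL, all with lower values in wF (16.1% against 10.7% of all genes). For *CD4*, a gene of low level, the gap was narrow, from 0.316 FPKM in wF1 to 0.321 in wL3.

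**Figure D4:**
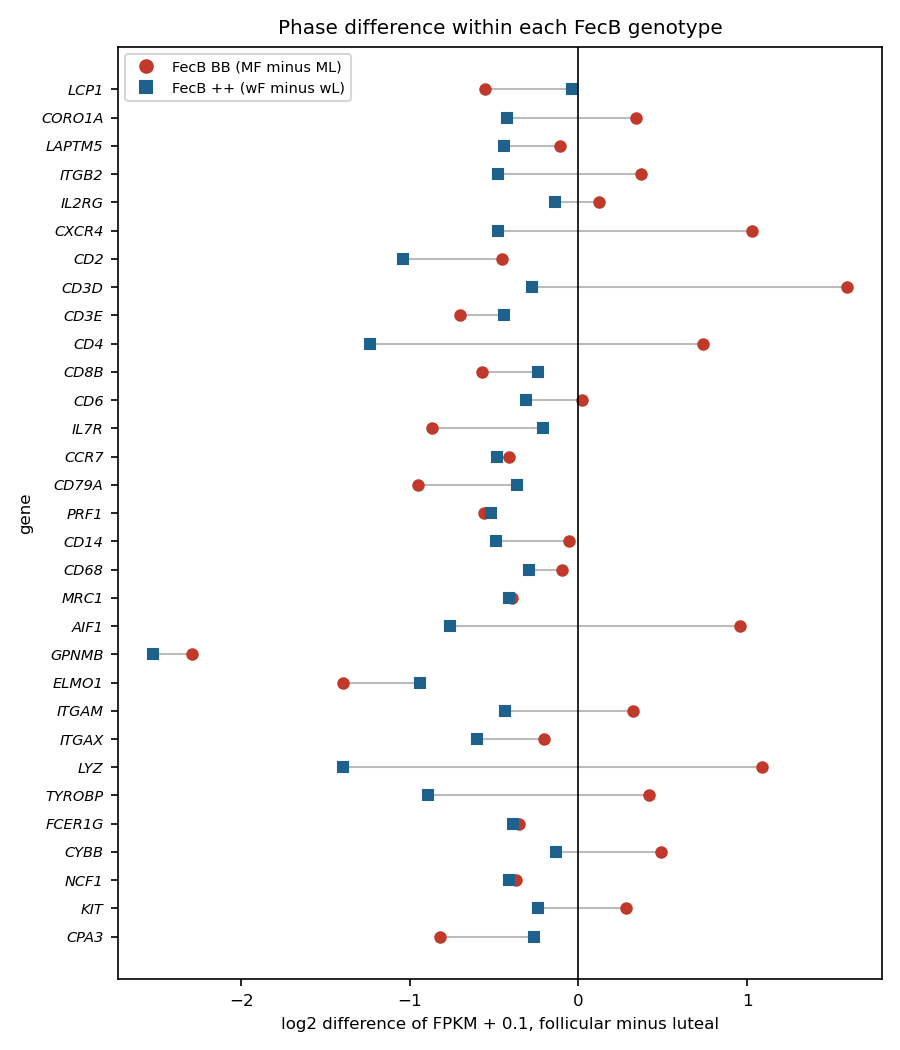
Difference of log2(FPKM + 0.1), follicular minus luteal, for the 31 tested genes in *FecB* BB (circles, MF minus ML) and *FecB* ++ ewes (squares, wF minus wL), 3 ewes per group. All 31 squares lie below 0, as do 18 circles, and *GPNMB* (-2.29 and -2.52) lies furthest below 0 in both genotypes.

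Whether the phase difference itself depended on genotype was tested with the interaction, MF minus ML less wF minus wL. None of the 31 genes was called by limma, against 0.0115% of all genes tested, and 2 (6.45% against 13%) had an unadjusted p under 0.05. The interaction was below 0 for 8 of the 31 genes and for 39.4% of all genes. For *GPNMB* the interaction was 0.23 on the log2 scale (95% interval -1.46 to 1.92) and for *ELMO1* -0.45 (-1.51 to 0.61), and both intervals include differences of more than 1. *AIF1* had 1.72 (0.57 to 2.86, adjusted p = 0.375). Its values were higher in MF than in ML and lower in wF than in wL, without overlap in either genotype. *LYZ*, the bacteriolytic enzyme lysozyme, had 2.48 (0.23 to 4.74, adjusted p = 0.375). It read 13.1, 8.36 and 8.32 FPKM in MF, 10.5, 3.79 and 2.27 in ML, 10.0, 1.58 and 9.80 in wF and 21.5, 13.8 and 10.1 in wL. The 3 lowest values of *LYZ* were in wF2, ML3 and ML2, and wL1 was the highest. *CD4* followed with 1.97 (adjusted p = 0.377), *CXCR4* with 1.51 (adjusted p = 0.377) and *TYROBP* with 1.31 (adjusted p = 0.379). The levels of *CD4* were low, and it is listed at 0 in ML3. Without ML2, ML3, wF2 and wL2 the interaction of *AIF1* was 0.73 (adjusted p = 0.337) and that of *LYZ* 0.46 (adjusted p = 0.724), and the median over the 31 genes went from 0.33 to -0.24. With those 4 left out, ML is 1 library and is assumed to vary like the other groups.

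**Figure D5:**
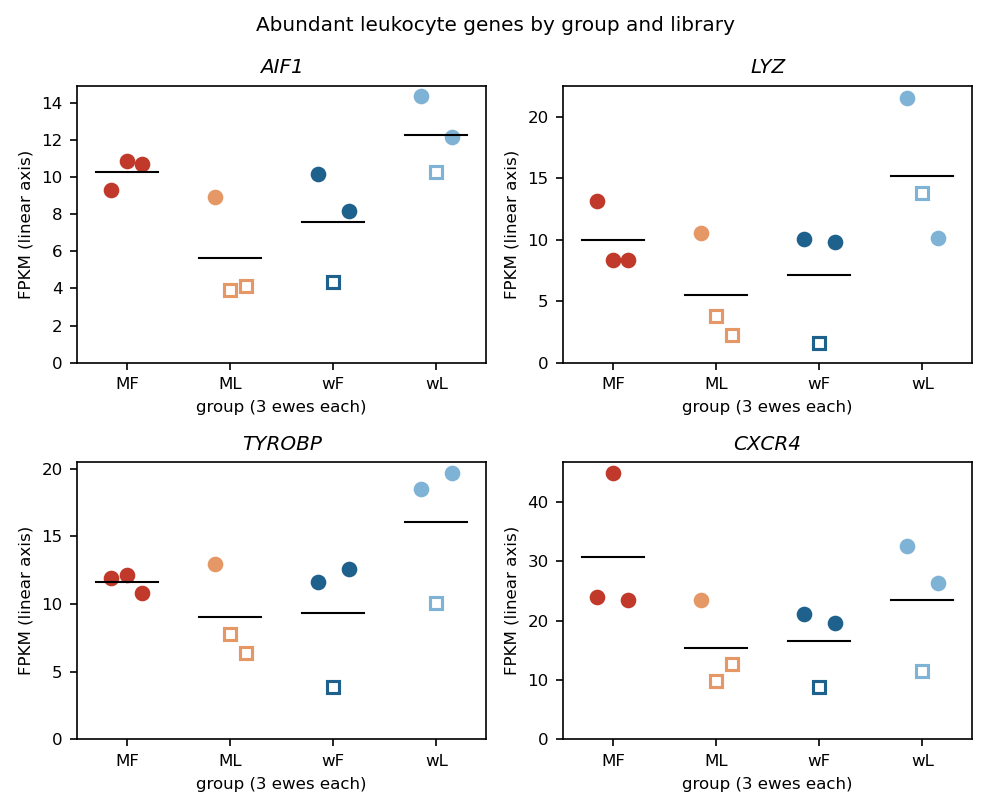
FPKM of *AIF1*, *LYZ*, *TYROBP* and *CXCR4* by group (linear axis; each point is 1 ewe and the line is the mean of 3). Open squares are ML2, ML3, wF2 and wL2, the 4 libraries with the most smooth muscle, which are the 4 lowest of the 12 for *TYROBP* and *CXCR4*, while wL2 stands among the others for *AIF1* and *LYZ*.

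Between the genotypes no leukocyte gene was called by limma in either phase. In the follicular phase (MF vs wF) 0.0231% of all genes tested were called, and 0 of the 31 had an unadjusted p under 0.05, against 3.15% of all genes (1.99% with higher and 1.15% with lower values in MF). *CXCR4* was the only gene whose groups did not overlap, with 0.93 higher in MF on the log2 scale (SE 0.49, adjusted p = 0.997; 3.23% against 5.16% of all genes), and none did with lower values in MF (3.71% of all genes). The next by unadjusted p among genes higher in MF were *AIF1* (0.52) and *ITGAX* (0.51), and the first 3 among genes lower in MF were *IL7R* (-0.41), *CD6* (-0.40) and *CD8B* (-0.40), all with overlapping groups. The median over the 31 genes was 0.25, and 7 of them (47% of all genes) were below 0. Without wF2 the median was -0.03 with 18 below 0, so the sign rested on that library.

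In the luteal phase (ML vs wL) 0% of all genes tested were called, and 2 of the 31 (6.45%) and 13.1% of all genes had an unadjusted p under 0.05, all of the former with lower values in ML (9.22% of all genes, and 3.84% with higher). They were *AIF1*, with -1.20 (SE 0.37, adjusted p = 0.380), and *LYZ*, with -1.66 (SE 0.72, adjusted p = 0.380). *AIF1*, *CD4* and *CORO1A* did not overlap, with lower values in ML (9.68% against 13.3% of all genes), none did with higher values (4.83% of all genes), and *CD4* had -1.32 (adjusted p = 0.394). That difference includes the value of 0 listed for *CD4* in ML3. *ELMO1* (0.38), *CD79A* (0.83) and *FCER1G* (0.21) had the smallest unadjusted p among genes with a positive value and overlapped. *GPNMB* had -0.09 (95% interval -1.29 to 1.11). The median over the 31 was -0.08 and 20 were below 0 (61.9% of all genes), and the median was 0.16 without ML2, ML3, wF2 and wL2 and 0.10 with libraries rescaled to equal mRNA sums.

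The 4 libraries with the most smooth muscle are set against the other 8 as a description with no test. *CXCR4*, *TYROBP* and *CYBB* were lower in all 4 than in all 8 others, which is 3 of 31 genes (9.68%) against 6.57% of all genes tested, and no gene of the 31 was higher in all 4 (5.37% of all genes). *CXCR4* was 8.80 to 12.7 FPKM in the 4 and 19.6 to 44.9 in the 8. The mean log2 level of the 4 minus that of the 8 had a median of -0.35 over 13 myeloid genes, -0.31 over 6 pan-leukocyte genes and 0.30 over 8 T cell genes, against 0.01 over all genes. *LYZ* (-1.53), *ITGAM* (-1.05), *TYROBP* (-1.01) and *AIF1* (-1.0) were at the low end and *CD8B* (1.14), *GPNMB* (1.05) and *PRF1* (0.83) at the high end. Of the 13 myeloid genes 8 were below 0, and *GPNMB* was not among them. Within these 4 libraries its value was 0.776 FPKM in the follicular wF2 against 8.06 to 17.3 in the luteal ML2, ML3 and wL2.

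Other genes of leukocytes and of their recruitment, listed with earlier results known, gave 1 call in the 6 comparisons over 82 tested genes, in MF vs ML, where 1.73% of all genes were called. *CX3CL1*, a membrane-bound chemokine of epithelium and endothelium, fell in MF vs ML, with -1.69 (SE 0.36, adjusted p = 0.0468). It read 3.22, 2.84 and 4.42 FPKM in MF, 16.3, 6.36 and 13.9 in ML, 5.87, 3.06 and 4.70 in wF and 7.01, 6.68 and 7.32 in wL. All luteal values were above all follicular ones, but the difference over both genotypes was not called (-1.18, adjusted p = 0.0540). The call in MF vs ML was lost without MF1 (adjusted p = 0.145), MF2 (0.180), ML1 (0.0751) or ML3 (0.123). *CXCL12*, the ligand of CXCR4, read 9.22, 9.35 and 19.2 FPKM in MF, 33.9, 33.6 and 41.2 in ML, 7.69, 15.8 and 19.2 in wF and 7.34, 34.2 and 14.3 in wL. Its values in ML were above those in MF (log2 difference -1.60, adjusted p = 0.110). Of 18 other macrophage genes tested in MF vs ML, 3 had an unadjusted p under 0.05 with higher and 1 with lower values in MF (14.2% and 11.3% of all genes), and in ML vs wL 5 with lower and 0 with higher values in ML (9.22% and 3.84% of all genes). Among them was *FCGR3A*, an Fc receptor for IgG, which read 12.1, 9.28 and 17.8 FPKM in MF, 7.69, 5.00 and 4.86 in ML, 14.2, 4.45 and 6.96 in wF and 14.8, 10.9 and 11.7 in wL. Its values in MF were above those in ML (1.13, adjusted p = 0.126) and its values in ML below those in wL (-1.10, adjusted p = 0.380), without overlap in either comparison. The gene with lower values in MF was *MERTK*, a receptor for the engulfment of apoptotic cells, with -0.83 (adjusted p = 0.172), and *VSIG4*, a complement receptor of macrophages, had -0.82 (adjusted p = 0.443). Neither overlapped between MF and ML, which also held with lower values in MF for 14.4% of all genes tested, and both were chosen after their values were seen. Of the 18 genes, 10 were above 0 and 8 below 0 in MF vs ML, with a median of 0.12. In wF vs wL *MERTK* had 0.03 and *VSIG4* -1.22, both with overlapping groups. The 3 lowest values of *FCGR3A* were in wF2, ML3 and ML2, and the part of tissue composition in this was not tested.

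*JCHAIN*, the joining chain of secreted antibodies that plasma cells make, read 9.52, 55.3 and 57.4 FPKM in MF, 13.7, 7.86 and 5.75 in ML, 5.85, 8.30 and 39.0 in wF and 7.46, 15.2 and 7.16 in wL. It exceeded *CD79A* in every library and ranged within MF over 9.52 to 57.4 FPKM. Its log2 difference in MF vs ML was 1.86 (adjusted p = 0.187), with overlapping groups.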

How the data were processed

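Total RNA was extracted from the isthmus of 12 ewes. The paper describes enrichment of poly-A mRNA and removal of ribosomal RNA before the authors had the libraries built and sequenced. According to the submitters' processing notes they used fastp, HISAT2 and StringTie with the sheep genome Oar_v3.1 (tool versions are not given in the sources used here), and the deposited table holds 1 FPKM value per transcript and library. The table gives no read counts, so no counting interval is given for a value, and its precision is judged from the spread between ewes.

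Transcripts were paired with gene symbols through RefSeq accessions of a newer sheep assembly, 853 with and 14336 without their version and 13 by gene identifier, which is 15202 of 43674 mRNA transcripts (34.8%) and 67.6% of the mean mRNA FPKM. Gene sums are therefore incomplete. Of the 36 genes with a value, 32 rest on 1 transcript. Genes with a mean of at least 0.1 FPKM were fitted as log2(FPKM + 0.1) with limma 3.58.1 (trend, 4 group means, 12 libraries) in R 4.3.3, with p adjusted by Benjamini-Hochberg over 8676 genes. Calls required an adjusted p under 0.05 and an absolute log2 difference of at least 1. Unadjusted p values are from the same fit and 2-sided. Descriptions and figures were made in Python 3.11.15 with scipy 1.17.1, pandas 2.3.3, matplotlib 3.10.9 and numpy 2.4.6. The steps were tested on simulated data.

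Values in all libraries are given for called genes, for up to 3 genes per direction and comparison of smallest unadjusted p, and for the 2 most abundant genes of each class. *CX3CL1* and other genes outside the 45 were named where called or among the 2 of smallest unadjusted p under 0.05 of their list. The exception is *VSIG4*, which met neither rule and was named after its values were seen. Some results are not reported here. The genes and lists were chosen with earlier results of these data known. The alternatives tried were the most abundant transcript, quantile normalization, rescaling to equal mRNA sums, 1 as the value added, a filter at a mean of 1 FPKM or none, the replicate number as a block, a fit of 6 libraries, and each library left out in turn. The 4 libraries with the most smooth muscle were left out as an alternative chosen after seeing the data.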

Additional observations from a re-analysis of the deposited data

Results flagged for a closer look

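Some values stood far from the other 5 libraries of their phase by the size of the gap on the log2 scale (62 groups of 6 libraries were examined, and chance gives about 1 in 20). In the follicular library wF2, *ITGB2* read 2.11 FPKM against 4.04 to 5.67 in the other 5, *AIF1* 4.36 against 8.18 to 10.9, *LYZ* 1.58 against 8.32 to 13.1 and *TYROBP* 3.85 against 10.8 to 12.6. All 4 genes are low in the same library, whose smooth muscle sum of 6596 FPKM is the second highest, and the part of tissue composition in this was not tested. *CPA3* read 0.231 FPKM in wF3 against 0.0138 to 0.0635. In the luteal libraries *CD3D* is listed at 0 in ML1 against 1.23 to 2.62, and *KIT* at 0 in ML3 against 0.311 to 0.603.

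*AIF1* differed in opposite directions in the genotypes, with all 3 values higher in MF than in ML and all 3 lower in wF than in wL. The interaction was 1.72 on the log2 scale (limma, adjusted p = 0.375) and was not called.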

How the results depend on the processing

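No comparison had more than 2 leukocyte genes called under any alternative run. In follicular vs luteal, 2 genes were called, and 1 with an added value of 1, without the filter, with the most abundant transcript, and without ML2, ML3, wF2 and wL2. Leaving out 1 library at a time gave 0 to 2 calls. In the first 3 of these the gene lost was *ELMO1* (log2 difference -0.98, or adjusted p = 0.0551 and 0.0529), and without the 4 libraries the gene called was *CD3D*. In MF vs ML, 0 were called, but 1 with an added value of 1 (*GPNMB*, adjusted p = 0.0481), 1 at a mean of at least 1 FPKM (*GPNMB*, 0.0499), 2 after rescaling and 1 without the 4 libraries. The median in MF vs ML was -0.11, -0.45 after rescaling and -0.41 without the 4 libraries, and -0.33 to 0.07 with 1 library left out. The interaction median of 0.33 became -0.24 without the 4 libraries. In follicular vs luteal *CD3D* had 0.66, but -0.019 without ML1, where it is listed at 0 (-0.019 to 1.08 over the libraries left out in turn). Rescaling moved the median of all genes from 0.06 to -0.26 in MF vs ML, from -0.04 to -0.24 in follicular vs luteal and from -0.16 to 0.02 in ML vs wL, so directions close to 0 depend on it. The cause of these shifts was not tested.

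Over all libraries left out, medians ranged over -0.70 to -0.26 in wF vs wL, -0.03 to 0.41 in MF vs wF, -0.27 to -0.01 in ML vs wL, -0.40 to -0.15 in follicular vs luteal and 0.12 to 0.49 in the interaction, and no gene was called in MF vs ML, wF vs wL, MF vs wF, ML vs wL or the interaction (0 to 0 in each).

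With the replicate number as a block, 1 gene was called in follicular vs luteal (*GPNMB*, adjusted p = 0.0462, with *ELMO1* at 0.0640), and 0 as before in the other comparisons. The labels do not say that the numbers pair the ewes. Correlations of same-numbered libraries were 0.06, 0.01 and 0.15 in MF vs ML and 0.27, 0.39 and 0.06 in wF vs wL. They were 0.02, -0.16 and 0.02 in MF vs wF and 0.35, 0.19 and -0.19 in ML vs wL. Differently numbered libraries gave -0.19 to 0.16 in MF vs ML and -0.35 to 0.19 in wF vs wL. They gave -0.13 to 0.12 in MF vs wF and -0.51 to 0.36 in ML vs wL. With 3 libraries a group, these values cannot decide whether same-numbered libraries share anything.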
